A study of Mus musculus with 25 samples.

Results

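RNA of 9 genes of the transforming growth factor beta (TGF-beta) pathway was followed in sorted mouse CD4 T cells: the ligand Tgfb1, the receptors Tgfbr1 and Tgfbr2, the signal transducers Smad2, Smad3 and Smad4, the inhibitory Smad7, and the nuclear repressors Ski and Skil. The 9 were taken by symbol from a list of pathway genes, out of 46078 genes in the count table. Of these genes, 14703 had enough reads to be tested, among them all 9. The list was chosen with earlier results of these data known. The cells came from C57BL/6NTac mice that were knock-out (KO) for miR-150, knock-in (KI) for miR-150 or wild-type (WT), each taken either on day 7 (D7) of EAE (experimental autoimmune encephalomyelitis, an immunisation model of multiple sclerosis) or naive. The libraries numbered 4 of KO D7, 4 of KO naive, 4 of KI D7, 4 of KI naive, 5 of WT D7 and 4 of WT naive, 25 in all. How the alleles were built, which cells carry them, the organ of origin, and the age and sex of the mice are not given in the sources used here, nor is it stated that each library came from a separate mouse, so p-values measure the spread between these libraries, which may be technical.

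miR-150 is a microRNA abundant in mature lymphocytes. TGF-beta is secreted in a latent form and, once released, binds Tgfbr2, which recruits and phosphorylates Tgfbr1. Tgfbr1 then phosphorylates Smad2 and Smad3, which join Smad4 and enter the nucleus to regulate genes. Smad7 is a feedback inhibitor that blocks Tgfbr1 and brings ubiquitin ligases to the receptors, while Ski and Skil (also called SnoN) bind the Smad complex and recruit corepressors to its target genes. In CD4 T cells TGF-beta restrains proliferation and effector differentiation, favours Foxp3-positive regulatory T cells and, together with interleukin-6, favours Th17 cells, which take part in EAE.

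The libraries held 6024043 to 49489134 counts (median 16312725), and each member had between 256 and 17619 counts in every library. Depth differed by group: WT naive libraries held 6024043 to 9351180 counts, WT D7 libraries 6434118 to 30383082 and KO naive libraries 13917799 to 43640843. Mir150, the targeted gene, had 0 counts in all KO libraries, 105 to 624 in KI libraries and 111 to 743 in WT libraries. These counts are not scaled to depth, and the KI and WT ranges overlapped. The 6 CD4 T cell markers summed to 1882 to 2142 CPM (counts scaled to library size) in every library, and Cd8a did not exceed 6.77 CPM. B cell markers summed to 139 to 196 CPM, of which Ighm alone made up 135 to 184 CPM, and the B cell genes Cd79a, Ms4a1 and Pax5 stayed at or below 4.496 CPM each. The 7 myeloid markers summed to 4.25 to 19.7 CPM, the 6 regulatory T cell markers to 202.97 to 398 CPM, and the 4 red cell and platelet markers to at most 5.46 CPM.

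Per kilobase of annotated exon, the members spanned a range from Ski at 52.6 CPM per kb to Smad2 at 4.66 CPM per kb, as means over the 25 libraries. Between them stood Tgfbr2 at 42.5, Smad7 at 38.8, Smad4 at 29.7, Skil at 17.6, Tgfb1 at 17.4, Smad3 at 12.4 and Tgfbr1 at 8.06 CPM per kb. The mRNA of the repressor Ski was thus listed above that of every receptor and Smad. Neighbours in this order were ranked the same way in all 25 libraries for Ski over Tgfbr2, Smad4 over Skil, Tgfb1 over Smad3, Smad3 over Tgfbr1 and Tgfbr1 over Smad2. Smad7 exceeded Smad4 in 24 of 25 libraries and Tgfbr2 exceeded Smad7 in 20 of 25. Skil exceeded Tgfb1 in 12 of 25, and their order differed by stage. By group means in CPM per kb, Skil was above Tgfb1 in naive libraries (19.5 against 19.0 in KO, 20.9 against 17.4 in KI, 21.2 against 17.2 in WT). At D7 Skil was below Tgfb1 (15.2 against 18.4 in KO, 14.3 against 15.8 in KI, 14.9 against 17.1 in WT). Within libraries, the count of Tgfbr2 was a multiple of that of Tgfbr1, with a mean ratio of 6.10 ± 0.372 in KO D7, 7.42 ± 0.655 in KI D7 and 6.70 ± 1.10 in WT D7 libraries (SD).

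Skil lies on chromosome 3 at 31095058 to 31122577 (plus strand, mm10), Ski on chromosome 4 at 155154075 to 155222592 (minus), Tgfbr2 on chromosome 9 at 116084293 to 116175360 (minus) and Tgfbr1 on chromosome 4 at 47353222 to 47414931 (plus). With edgeR, Ski, Tgfbr2 and Tgfbr1 were each called lower at D7 in KI and over the mean of genotypes, and in neither KO nor WT. The sequence around their starts is shown (that of Skil is not used here), from 250 bases before to 50 after the RefSeq transcript start on GRCm38.p6, 5′ to 3′ on the gene's strand. For Tgfbr1 only the window at the annotated gene start was searched, and any other RefSeq start was left out. Capitals mark CAGAC, the core of many Smad-bound elements. Ski is at chr4:155222486-155222785, Tgfbr2 at chr9:116175314-116175613 and Tgfbr1 at chr4:47352972-47353271.
Ski: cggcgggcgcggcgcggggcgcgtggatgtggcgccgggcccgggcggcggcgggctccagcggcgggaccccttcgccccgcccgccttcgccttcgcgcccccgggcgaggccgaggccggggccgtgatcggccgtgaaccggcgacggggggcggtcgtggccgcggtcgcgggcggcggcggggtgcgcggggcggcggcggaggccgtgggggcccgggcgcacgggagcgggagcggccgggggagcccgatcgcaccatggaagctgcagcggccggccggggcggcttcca
Tgfbr2: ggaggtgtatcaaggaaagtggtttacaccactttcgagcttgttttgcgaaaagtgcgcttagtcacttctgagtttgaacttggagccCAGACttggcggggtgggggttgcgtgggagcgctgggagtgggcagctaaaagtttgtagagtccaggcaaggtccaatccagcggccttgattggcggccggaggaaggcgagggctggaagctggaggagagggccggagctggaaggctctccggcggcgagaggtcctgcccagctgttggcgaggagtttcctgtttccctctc
Tgfbr1: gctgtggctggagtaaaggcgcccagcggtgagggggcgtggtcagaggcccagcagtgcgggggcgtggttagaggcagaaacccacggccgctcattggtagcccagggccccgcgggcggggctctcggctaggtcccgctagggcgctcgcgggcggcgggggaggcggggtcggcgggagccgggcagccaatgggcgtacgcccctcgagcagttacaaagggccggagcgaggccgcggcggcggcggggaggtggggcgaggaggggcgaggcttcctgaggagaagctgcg
On both strands, CAGAC matched once in the Tgfbr2 window, 160 bases before the start, and had no match in the Ski, Tgfbr1, Smad3 and Tgfb1 windows. It matched in 49.59% of all 32851 windows of 300 bases in the table. TGANTCA, the consensus of AP-1 factors, matched in none of the 5 windows and in 7.808% of all windows. The GC content was 85.33% for Ski, 74.67% for Tgfbr1 and 59.0% for Tgfbr2, against a median of 52.67% over all windows.

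Among the members, the repressor Skil had the smallest edgeR p between stages in each genotype and over their mean. Skil was lower at D7 in every genotype. In KO cells Skil stood at 136, 168, 139 and 146 CPM at D7, against 195, 192, 192 and 176 CPM in naive libraries. In KI cells it stood at 121, 142, 151 and 140.0 CPM at D7, against 209.5, 201.3, 207.4 and 194 CPM in naive libraries. In WT cells it stood at 137, 164, 125, 145 and 150.3 CPM at D7, against 205.7, 205.2, 198.8 and 212.3 CPM in naive libraries. Every D7 library was below every naive library of its genotype, with the smallest gap in KO.

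The log2 fold change of Skil, D7 over naive, was -0.36 ± 0.07 (SE) in KO, with an edgeR quasi-likelihood test and a Benjamini-Hochberg adjusted p of 0.0115. It was -0.55 ± 0.07 in KI (adjusted p = 1.50e-05) and -0.51 ± 0.07 in WT (adjusted p = 1.01e-05), so that Skil fell by 22.0% in KO, fell by 31.8% in KI and fell by 29.9% in WT. Over the mean of the 3 genotypes it was -0.47 ± 0.04 (95% interval -0.56 to -0.39, adjusted p = 2.75e-10), which placed Skil at rank 7 by p among the 14703 genes. Skil was 1 of 12 genes called lower in each of the 3 genotypes (0.0816% of genes tested). The KO call rested on single libraries: without KO D7 replicate 1 or replicate 3 its adjusted p became 0.0542 or 0.0556, and with limma voom it was 0.0572, the log2 fold change staying at or below -0.32.

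Ski, the paralogue of Skil, differed less. In KO cells Ski stood at 276, 251, 292 and 284 CPM at D7, against 322, 322, 328 and 316 CPM in naive libraries. In KI cells it stood at 240.3, 294, 259 and 278 CPM at D7, against 296, 324, 319 and 314 CPM in naive libraries. In WT cells it stood at 257, 289.7, 269, 279.8 and 277 CPM at D7, against 313, 325, 301 and 293 CPM in naive libraries. Here too no D7 library reached a naive library of its genotype, by a narrow margin in KI and WT.

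Such separation in all 3 genotypes was found for 38 genes (0.258% of genes tested), Ski and Skil among them. The log2 fold change of Ski was -0.22 ± 0.06 in KO (adjusted p = 0.0815), -0.23 ± 0.06 in KI (adjusted p = 0.0361) and -0.17 ± 0.06 in WT (adjusted p = 0.135), so that it passed the threshold of 0.05 in KI only, with edgeR. DESeq2 also called it in KO (adjusted p = 0.0370). Averaged over genotypes Ski fell by 0.21 on the log2 scale (SE 0.03, adjusted p = 7.27e-05).

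**Figure D1:**
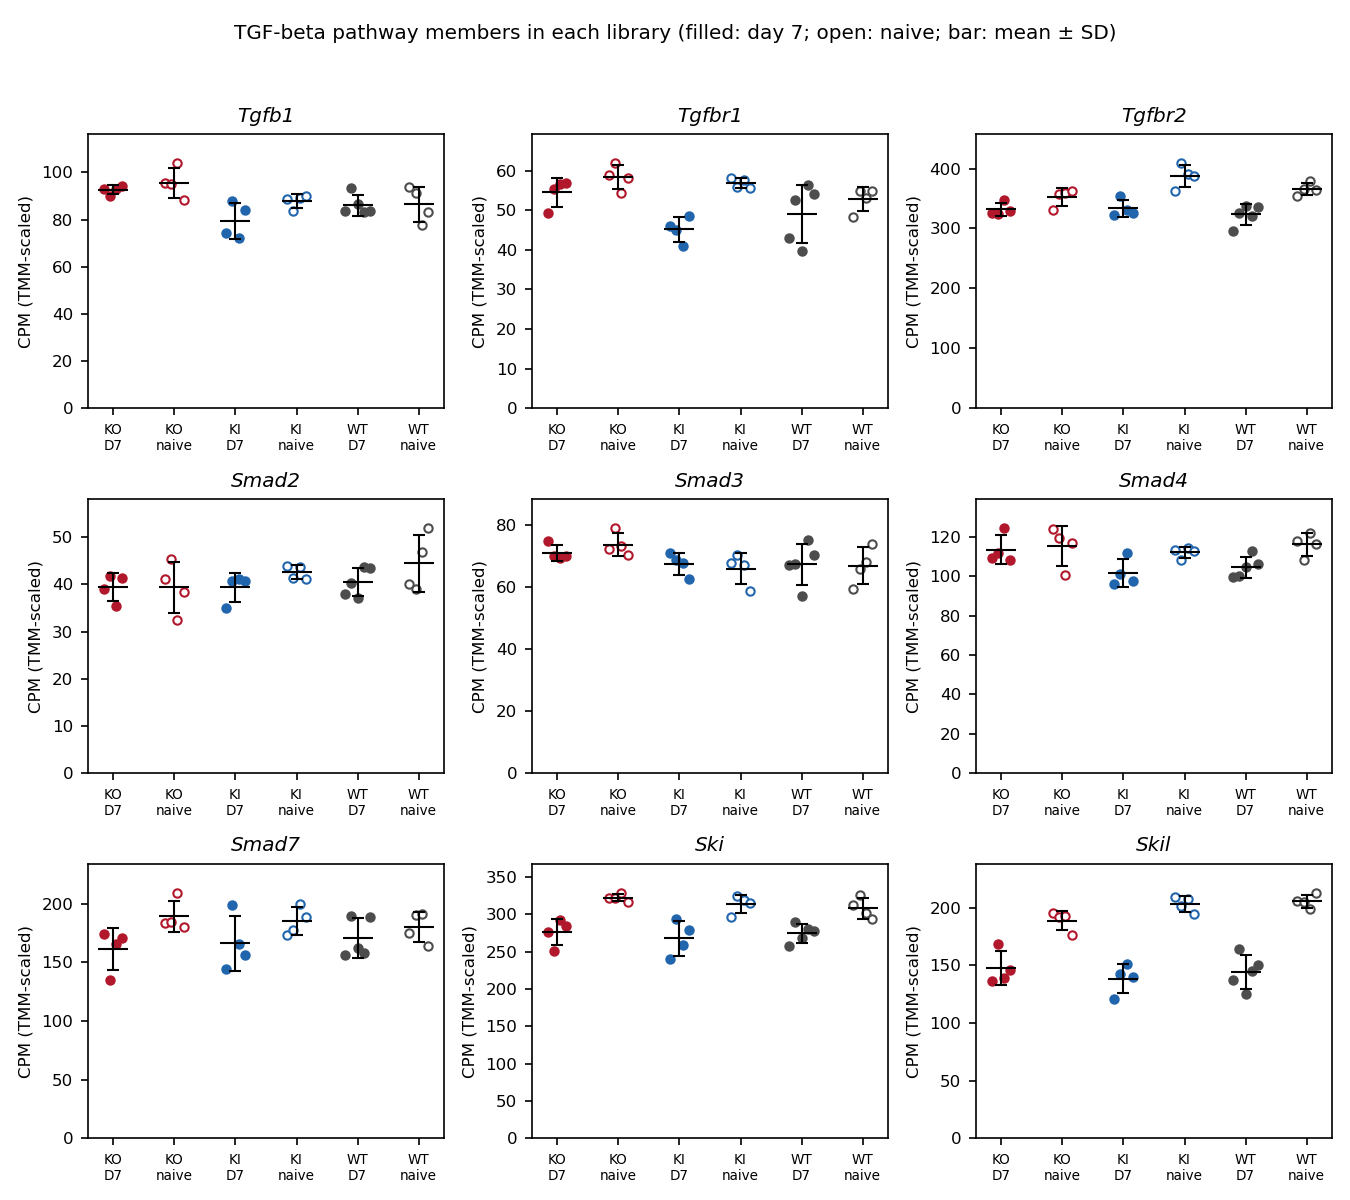
CPM of each member (vertical axes, from 0) in each library, by genotype and stage; filled points are D7, open points naive, and bars give the mean ± SD. Skil and Ski at D7 lie below the naive points of the same genotype in KO, KI and WT, while Smad3 overlaps in all 3.

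The ratio of Skil to Smad3 within a library does not depend on how libraries are scaled. It was 2.08 ± 0.245 at D7 in KO, against 2.56 ± 0.121 in naive KO libraries, 2.06 ± 0.255 at D7 in KI, against 3.09 ± 0.181 in naive KI libraries, and 2.15 ± 0.188 at D7 in WT, against 3.09 ± 0.266 in naive WT libraries (SD). The D7 and naive ranges of this ratio did not overlap in any genotype. The ratio of Skil to Smad4 was 1.30 ± 0.164 at D7 in KO, against 1.65 ± 0.180 in naive KO libraries, 1.36 ± 0.0763 at D7 in KI, against 1.81 ± 0.0644 in naive KI libraries, and 1.38 ± 0.169 at D7 in WT, against 1.77 ± 0.113 in naive WT libraries. For this ratio the stages overlapped in WT and did not in KO and KI. The ratio of Skil to Ski was 0.538 ± 0.0892 at D7, against 0.586 ± 0.0206 in naive libraries, in KO, and the 2 ranges overlapped. It was 0.518 ± 0.0453 at D7 in KI, against 0.649 ± 0.0416 in naive KI libraries, and 0.526 ± 0.0379 at D7 in WT, against 0.668 ± 0.0393 in naive WT libraries. In KI and WT cells Skil was thus lower relative to Ski as well, with no overlap between the stages.

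Smad7, the inhibitory Smad, stood at 174, 135, 166 and 171 CPM at D7 in KO, against 184, 184, 208.8 and 179.9 CPM in naive KO libraries, without overlap. It ranged from 144 to 199 CPM at D7 in KI, against 174 to 199.9 CPM in naive KI libraries, and from 156 to 189.5 CPM at D7 in WT, against 164 to 191 CPM in naive WT libraries, both with overlap. Its log2 fold change was -0.23 ± 0.09 in KO (adjusted p = 0.250), -0.16 ± 0.09 in KI (adjusted p = 0.423) and -0.08 ± 0.08 in WT (adjusted p = 0.737). The mean over genotypes, -0.15 ± 0.05, just passed the threshold (adjusted p = 0.0413). That call was lost under 5 of 8 other settings and when any 1 of 16 libraries was left out, with adjusted p between 0.0513 and 0.0928.

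The 2 receptors were lower at D7 on average. Tgfbr2, the ligand-binding receptor, stood at 325, 325, 348 and 329.8 CPM at D7 in KO, against 331, 357, 359.9 and 363 CPM in naive KO libraries. In KI it stood at 323, 354, 331 and 326 CPM at D7, against 363, 409, 391 and 388 CPM in naive libraries. In WT it stood at 296, 326, 338, 321 and 336 CPM at D7, against 354, 365, 379 and 363 CPM in naive libraries. The stages did not overlap in KI and WT and overlapped in KO.

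The log2 fold change of Tgfbr2 was -0.09 ± 0.06 in KO (adjusted p = 0.547), -0.22 ± 0.06 in KI (adjusted p = 0.0272) and -0.18 ± 0.05 in WT (adjusted p = 0.0689). Over the mean of genotypes it fell by 0.16 (SE 0.03, adjusted p = 0.000565). The WT value was called by DESeq2 (adjusted p = 0.0349), by limma voom (adjusted p = 0.0233) and with the library number as a covariate (adjusted p = 0.0295).

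Tgfbr1, the signalling receptor kinase, stood at 46.0, 45.0, 41.1 and 48.6 CPM at D7 in KI, against 58.2, 55.9, 57.8 and 55.7 CPM in naive KI libraries, with a clear gap. In KO it stood at 49.2, 55.4, 56.7 and 57.0 CPM at D7, against 59.0, 61.8, 54.5 and 58.1 CPM in naive libraries. In WT it stood at 43.1, 52.6, 39.6, 56.4 and 54.0 CPM at D7, against 48.4, 54.8, 53.1 and 55.0 CPM in naive libraries. The stages overlapped in KO and WT. Its log2 fold change was -0.10 ± 0.09 in KO (adjusted p = 0.706), -0.34 ± 0.09 in KI (adjusted p = 0.0375) and -0.11 ± 0.09 in WT (adjusted p = 0.623), and -0.18 ± 0.05 over the mean of genotypes (adjusted p = 0.0184).

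Of the 9 members, 1 was called lower in KO (0.218% of all genes tested were), 4 in KI (1.1% of all genes), 1 in WT (1.03% of all genes) and 5 over the mean of genotypes (4.99% of all genes). None was called higher, where 0.258%, 1.02%, 1.22% and 5.39% of all genes were in KO, KI, WT and the mean. Because the members were chosen with earlier results of these data known, these counts beside the shares of all genes are a description only. The median log2 fold change of the members was -0.09 in KO, -0.16 in KI, -0.14 in WT and -0.15 over the mean, while that of all genes lay between -0.00 and 0.01. Of all genes, 2.64% in KO, 6.33% in KI and 2.92% in WT had every D7 library below every naive one. Of the members this held for 3 in KO, 4 in KI and 3 in WT. The KI calls other than that of Skil each depended on single libraries. Leaving out 1 library left 1 to 4 members called in KI, and Tgfbr1 lost its call without any KI library except D7 replicate 4 (adjusted p 0.0716 to 0.122). Tgfbr2 lost its call without KI D7 replicate 1 or 4 or KI naive replicate 2, 3 or 4 (adjusted p 0.0663 to 0.126), and Ski without KI D7 replicate 1 or 3, KI naive replicate 2, 3 or 4, or WT D7 replicate 5 (adjusted p 0.0528 to 0.246). With no filter on low counts the KI calls of Tgfbr2 (adjusted p = 0.0698) and Ski (adjusted p = 0.0511) were lost as well, and that of Ski also with only the KI libraries fitted (adjusted p = 0.05996) and with blocking by library number (adjusted p = 0.0506).

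**Figure D2:**
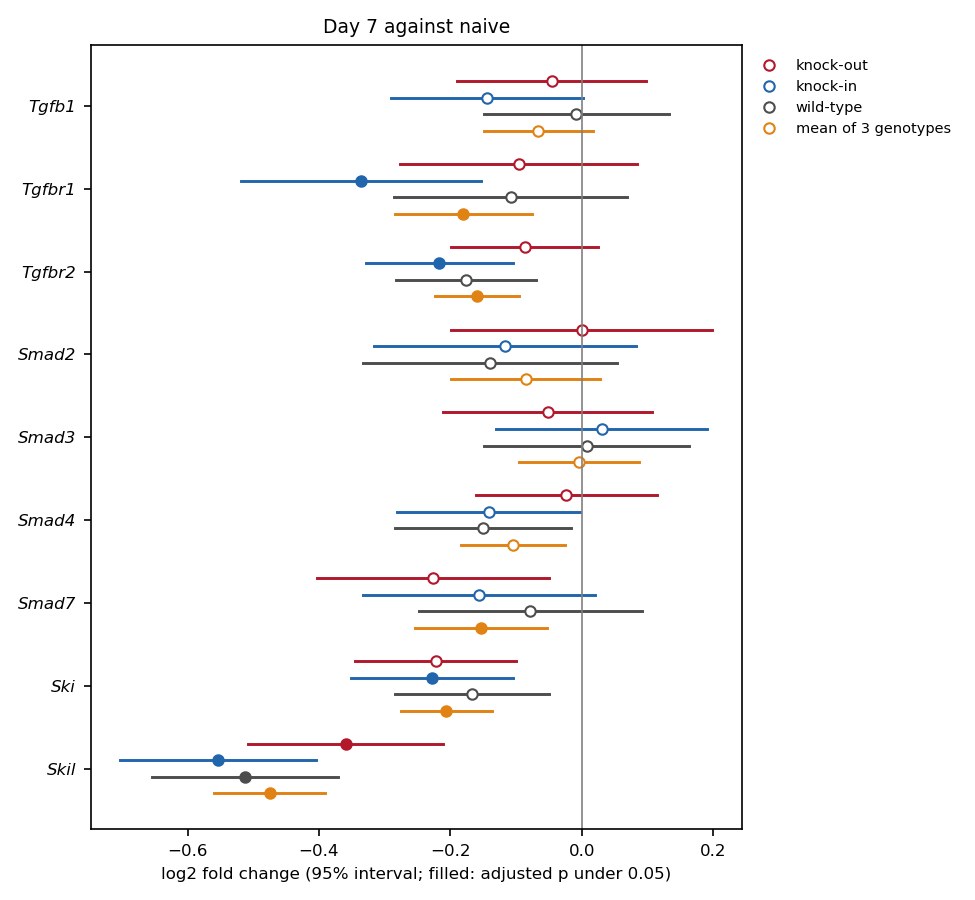
Log2 fold change of each member, D7 over naive (horizontal axis), in KO, KI and WT and over their mean, with 95% intervals; filled points have an adjusted p under 0.05. Skil is filled in all 4 rows, with a mean of -0.47, and Smad3 lies at 0.

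The ligand and the transducers did not pass the edgeR test in any genotype or over their mean. Tgfb1 ranged from 89.9 to 94.4 CPM at D7 in KO, against 88.4 to 104 CPM in naive KO libraries, from 72.2 to 88.1 CPM at D7 in KI, against 83.6 to 89.9 CPM in naive KI libraries, and from 83.0 to 93.5 CPM at D7 in WT, against 77.8 to 93.7 CPM in naive WT libraries. Its log2 fold change over the mean of genotypes was -0.07 (95% interval -0.15 to 0.02, adjusted p = 0.342). Smad3 had a mean log2 fold change of -0.00 (interval -0.10 to 0.09, adjusted p = 0.97). Smad3 ranged from 69.4 to 74.8 CPM at D7 in KO, against 70.4 to 78.9 CPM in naive KO libraries, from 62.5 to 71.1 CPM at D7 in KI, against 58.6 to 70.2 CPM in naive KI libraries, and from 57.0 to 75.0 CPM at D7 in WT, against 59.5 to 73.8 CPM in naive WT libraries. The stages overlapped for both genes in every genotype. Smad2 had -0.09 (interval -0.20 to 0.03, adjusted p = 0.378). Smad4, the shared partner of both, had -0.10 (interval -0.18 to -0.03, adjusted p = 0.0800), and limma voom called it lower (adjusted p = 0.0220). Smad4 ranged from 108 to 124 CPM at D7 in KO, against 101 to 124 CPM in naive KO libraries, from 95.8 to 112 CPM at D7 in KI, against 108 to 114 CPM in naive KI libraries, and from 99.5 to 113 CPM at D7 in WT, against 108 to 122 CPM in naive WT libraries. Smad2, the lowest member, spanned 34.9 to 41.9 CPM in the KO and KI libraries at D7 and 37.1 to 43.6 CPM in WT at D7, against 32.5 to 45.5 CPM in naive KO, 41.1 to 43.9 CPM in naive KI and 38.9 to 51.9 CPM in naive WT libraries. Smad4 passed the threshold over the mean of genotypes without KO naive replicate 3 (adjusted p = 0.0359) and without KI D7 replicate 3 (adjusted p = 0.0395).

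Sets of genes that mark handling, stimulation or other cells differed between the stages too. Of 10 immediate early genes, 9 were tested and 7 were higher at D7 over the mean of genotypes (5.39% of all genes were), Fos by 3.83 on the log2 scale. Their summed level was 469 to 725 CPM at D7 in KO, against 236 to 248 CPM in naive KO libraries, 665 to 1019 CPM at D7 in KI, against 273 to 413 CPM in naive KI libraries, and 585 to 1023 CPM at D7 in WT, against 182 to 213.6 CPM in naive WT libraries. Of 8 markers of cytotoxic, NK and gamma-delta cells, 7 were tested and 4 were lower at D7 over the mean of genotypes (4.99% of all genes were). In single genotypes 0 were called lower in KO, 2 in KI and 3 in WT (0.218%, 1.1% and 1.03% of all genes). The 8 markers summed to 21.2 to 29.5 CPM at D7 in KO, against 29.5 to 56.4 CPM in naive KO libraries. The sums were 19.5 to 22.9 CPM at D7 in KI, against 26.1 to 34.3 CPM in naive KI libraries, and 17.7 to 25.4 CPM at D7 in WT, against 29.4 to 39.4 CPM in naive WT libraries. The part of either set in the lower Skil, Ski, Tgfbr2 and Tgfbr1 was not tested. In bulk samples, fewer cells of a type and less RNA per cell cannot be told apart.

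Genotype made no difference that passed the test. With edgeR, 0 of 9 members were called in KO against WT at D7 (0.116% of all genes were) or naive (0.0204%), and 0 in KI against WT at D7 (0% of all genes) or naive (0.0068%). None of the 9 had an unadjusted p under 0.05 in these 4 comparisons, where 9.12%, 7.43%, 4.39% and 2.20% of all genes had, and DESeq2 and limma voom also called 0. The log2 fold changes of the members ran from -0.08 to 0.15 in KO against WT at D7 and from -0.18 to 0.15 naive. They ran from -0.12 to 0.05 in KI against WT at D7 and from -0.06 to 0.11 naive. These comparisons share their WT libraries.

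The intervals say how large a genotype difference the data allow. For Tgfbr2, KO over WT at D7 was 0.04 with a 95% interval of -0.07 to 0.15, and KI over WT at D7 was 0.05 with an interval of -0.06 to 0.15. For Skil the same values were 0.03 (-0.11 to 0.17) and -0.06 (-0.20 to 0.09). For Ski they were 0.01 (-0.11 to 0.12) and -0.03 (-0.15 to 0.08), and for Smad7 -0.08 (-0.25 to 0.09) and -0.04 (-0.21 to 0.13). Smad3 had 0.08 (-0.07 to 0.23) and 0.00 (-0.15 to 0.16), and Smad4 0.12 (-0.01 to 0.25) and -0.04 (-0.17 to 0.09). Tgfb1 and Tgfbr1 were above WT in KO and below WT in KI at D7 by estimates whose intervals all held 0, with 0.11 and 0.15 in KO and -0.11 and -0.12 in KI. The widest intervals were those of Smad2, the member of lowest level, which in KO over WT naive had -0.18 (-0.38 to 0.02, adjusted p = 0.723). Across all 9 members and these 4 comparisons, no interval went below -0.38 or above 0.33.

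**Figure D3:**
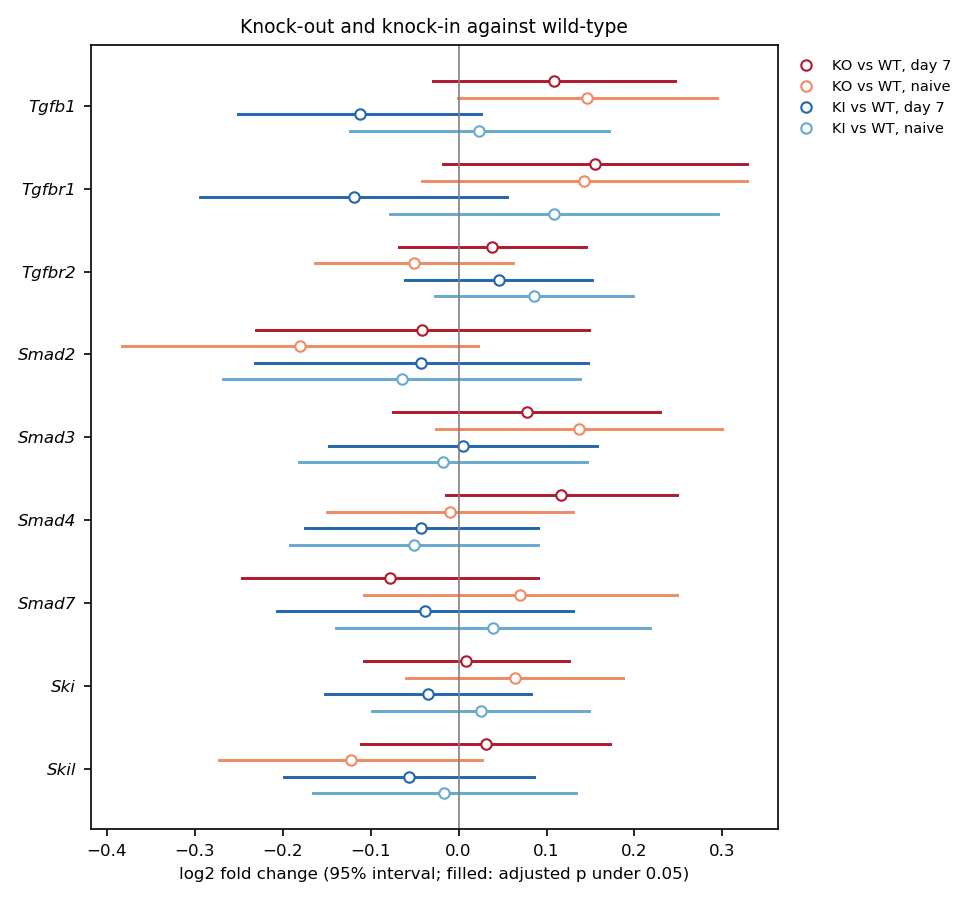
Log2 fold change of each member in KO against WT and KI against WT (horizontal axis), at D7 and naive, with 95% intervals. No point is filled, since no adjusted p was under 0.05, and the points lie between -0.18 and 0.15.

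Between KO and KI at D7, the ligand and its signalling receptor had the largest differences of the 9 members. At D7, Tgfb1 stood at 93.1, 89.9, 93.1 and 94.4 CPM in KO, against 74.2, 88.1, 72.2 and 84.0 CPM in KI. Tgfbr1 stood at 49.2, 55.4, 56.7 and 57.0 CPM in KO, against 46.0, 45.0, 41.1 and 48.6 CPM in KI. For both genes every KO library was above every KI library, as for 2.26% of all genes. The log2 fold changes were 0.22 ± 0.07 for Tgfb1 (adjusted p = 0.205) and 0.27 ± 0.09 for Tgfbr1 (adjusted p = 0.2136), and Smad4 had 0.16 ± 0.07 (adjusted p = 0.384). These 3 had an unadjusted p under 0.05, as did 10.8% of all genes. None passed after adjustment, so 0 of 9 were called, against 0.476% of all genes. In naive cells 0 of 9 were called, against 0.279% of all genes, and the 1 member with an unadjusted p under 0.05 was Tgfbr2, at -0.14 ± 0.06 (adjusted p = 0.418).

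The change between stages was compared between genotypes directly. The difference in the D7 effect between KO and WT was 0.15 ± 0.10 for Skil (interval -0.05 to 0.36, adjusted p = 0.736), whose fall was smallest in KO. For Tgfbr1 the difference between KI and WT was -0.23 ± 0.13 (interval -0.48 to 0.03, adjusted p = 0.999), and for Tgfbr2 it was -0.04 ± 0.08 (interval -0.19 to 0.11). No member was called in either difference (0 of 9 for each, with 0% of all genes called), none had an unadjusted p under 0.05, and DESeq2 and limma voom called 0 of the 9. The calls seen for Tgfbr1, Tgfbr2 and Ski in KI alone are not shown to be particular to KI.

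A further 50 pathway genes in 7 roles gave the setting of the members, of which 43 were tested; Ltbp1, Ltbp3, Acvr2b, Smad6, Smad9, Zfyve9 and Foxh1 had too few counts. Over the mean of genotypes, 2 of the 43 were higher and 5 lower at D7, where 5.39% of all genes were higher and 4.99% lower. Smad5, a transducer of bone morphogenetic proteins, fell by 0.29 (SE 0.05, adjusted p = 0.000170). It averaged 71.2 ± 2.18 CPM at D7 in KO, against 83.2 ± 9.97 CPM in naive KO libraries, 55.3 ± 6.84 CPM at D7 in KI, against 72.9 ± 5.03 CPM in naive KI libraries, and 64.6 ± 4.502 CPM at D7 in WT, against 76.3 ± 9.29 CPM in naive WT libraries (SD). Smurf1, a ubiquitin ligase that Smad7 brings to the receptors, fell by 0.22 (SE 0.05, adjusted p = 0.00249), and Usp9x, a deubiquitinase of Smad4, fell by 0.15 (SE 0.04, adjusted p = 0.0105).

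Tgfb3, another ligand of the same receptors, was higher at D7 by 1.95 on the log2 scale (SE 0.36, adjusted p = 0.000313), at a very low level. It averaged 2.34 ± 1.19 CPM at D7 in KO, against 0.693 ± 0.562 CPM in naive KO libraries, 2.35 ± 1.39 CPM at D7 in KI, against 0.333 ± 0.224 CPM in naive KI libraries, and 1.14 ± 0.478 CPM at D7 in WT, against 0.553 ± 0.233 CPM in naive WT libraries. Beyond the rule that names 4 genes for each list, and so chosen after their values were seen, the remaining calls were Tgif1, a Smad corepressor, at 0.33 (adjusted p = 0.0214), the coactivator Crebbp at -0.11 (adjusted p = 0.0153) and the deubiquitinase Usp4 at -0.12 (adjusted p = 0.0415). The Usp4 call was kept under 2 of 8 other settings (adjusted p up to 0.0749) and lost without any 1 of 14 libraries (adjusted p 0.0535 to 0.0948), and that of Crebbp was lost with no filter on low counts (adjusted p = 0.0743).

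Over the mean of genotypes, all 10 ubiquitin ligases, deubiquitinases and phosphatases had a negative log2 fold change, as did 50.96% of all genes. Their median was -0.11, against -0.00 over all genes. Of these 10, 3 were called lower, Usp4 among them, against 4.99% of all genes. In KO, KI and WT alone 7, 10 and 8 of the 10 were negative, as were 50.5%, 48.4% and 50.3% of all genes. Other roles also leaned to negative values over the mean, with 4 of 4 SMAD-independent genes, 6 of 7 nuclear partners, 2 of 2 other SMADs and 5 of 7 receptors. Of 8 genes of ligand latency and activation 2 were negative, and of 5 adaptors and receptor regulators 1. Of the 7 tested receptors and co-receptors of the wider family 0 were called, and of the 4 SMAD-independent signalling genes 0. In KI alone, Tgfb3 was higher by 2.995 (SE 0.66, adjusted p = 0.00849), and Smad5 (-0.40, adjusted p = 0.0105) and Smurf1 (-0.35, adjusted p = 0.0191) were lower. Without KI D7 replicate 1 or KI naive replicate 1 the Tgfb3 call was lost, without KI D7 replicate 1 or KI naive replicate 3 that of Smad5, and without KI D7 replicate 1 or 3 or KI naive replicate 1, 3 or 4 that of Smurf1, with adjusted p between 0.0507 and 0.0945. In KO and in WT edgeR called 0 of the 43, with 4 in KO and 6 in WT at an unadjusted p under 0.05, where 12.5% of all genes in KO and 14.4% in WT stood; DESeq2 called 0 in each, and limma voom 0 in KO and 1 in WT. The abundant corepressor Ncor1, named there for its level, had -0.05 in KO and -0.03 in WT, and Crebbp had -0.10 in KO and -0.08 in WT.

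**Figure D4:**
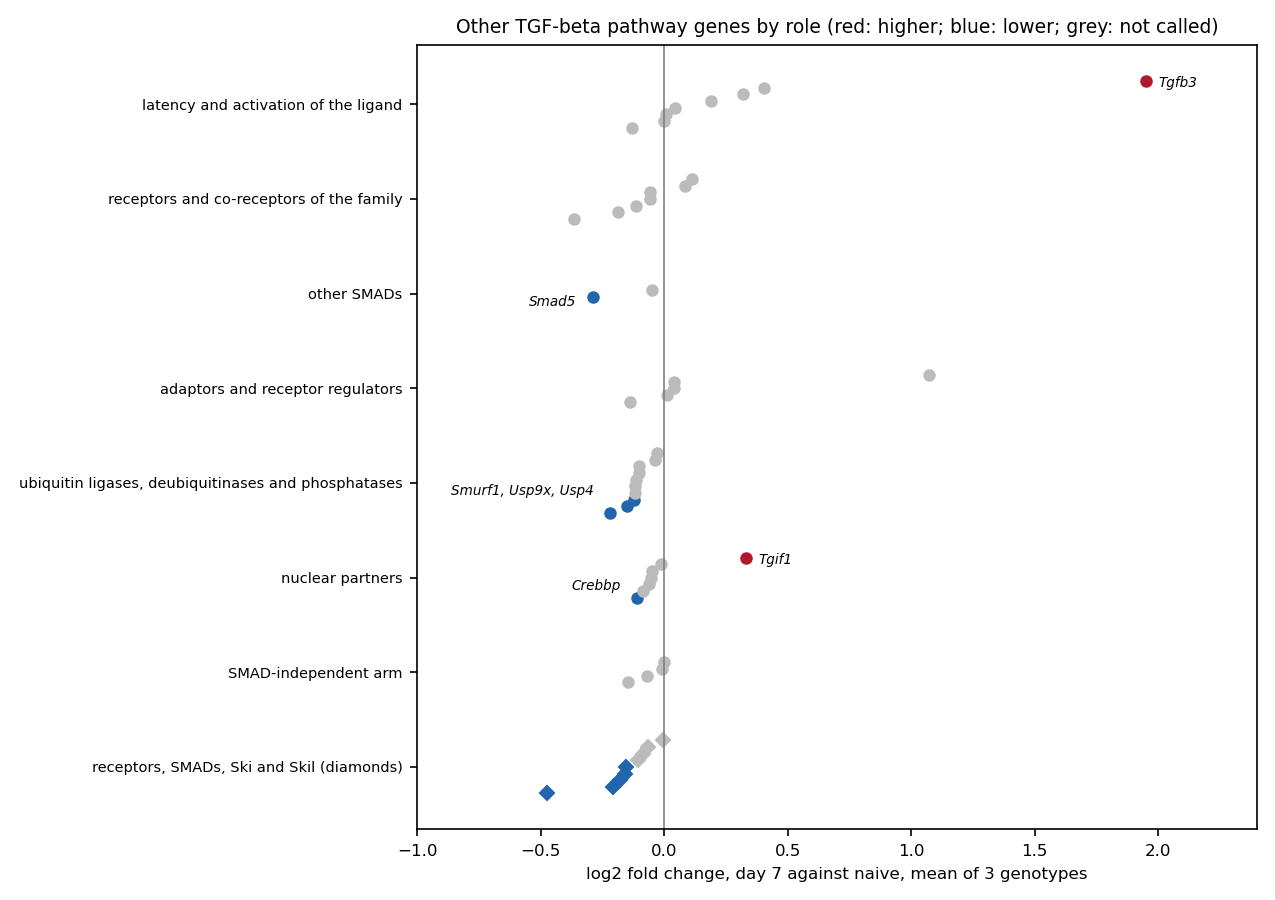
Log2 fold change, D7 over naive, mean of the 3 genotypes (horizontal axis), of each tested pathway gene by role and of the 9 members (diamonds); red is higher, blue lower and grey not called. Tgfb3 lies furthest to the right at 1.95, and the members lie between -0.47 and 0.

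Of 12 genes known to be induced by TGF-beta in lymphocytes or other cells, 7 were tested. Over the mean of genotypes 2 of the 7 were called higher at D7, Id2 among them, and 0 lower. Of all genes, 5.39% were called higher and 4.99% lower. The direction was mixed, with 3 of the 7 log2 fold changes positive and 4 negative. An unadjusted edgeR p under 0.05 was reached by 4 of the 7, as by 24.2% of all genes. Id2, an inhibitor of E-protein transcription factors, averaged 21.5 ± 1.73 CPM at D7 in KO, against 12.4 ± 3.43 CPM in naive KO libraries, 20.96 ± 3.22 CPM at D7 in KI, against 17.1 ± 1.92 CPM in naive KI libraries, and 23.4 ± 1.89 CPM at D7 in WT, against 16.2 ± 1.75 CPM in naive WT libraries. Its log2 fold change was 0.78 ± 0.14 in KO (adjusted p = 0.00349), 0.30 ± 0.14 in KI (adjusted p = 0.330), 0.53 ± 0.14 in WT (adjusted p = 0.0401) and 0.54 ± 0.08 over the mean (adjusted p = 2.29e-05). The WT call of Id2 was lost without any 1 of 6 WT libraries (adjusted p 0.0509 to 0.157), in the fit with a library-number term (adjusted p = 0.0637) and in that blocked by library number (adjusted p = 0.0661). Its KO call was lost with limma voom (adjusted p = 0.0572) and with only the KO libraries fitted (adjusted p = 0.0723). Foxp3, the regulatory T cell factor, had -0.01 ± 0.08 over the mean. It was not among the 4 genes with an unadjusted p under 0.05.

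Of 6 genes known to be lowered by TGF-beta in T cells, 5 were tested. Over the mean of genotypes 1 of the 5, Myc, was called higher at D7 (0.17 ± 0.05, adjusted p = 0.0335) and 0 lower. Of all genes, 5.39% were called higher and 4.99% lower. Here too the direction was mixed, with 3 log2 fold changes positive and 2 negative. An unadjusted edgeR p under 0.05 was reached by 3 of the 5, as by 24.2% of all genes. Gata3, at 0.05 ± 0.06, was not among these 3. The Myc call was lost without any 1 of 9 libraries (adjusted p 0.0528 to 0.0806). In KO and KI against WT, edgeR called 0 of the 43 pathway genes, 0 of the 7 induced and 0 of the 5 lowered genes at either stage. At an unadjusted p under 0.05 stood 3 pathway, 1 induced and 2 lowered genes in KO against WT at D7 (9.12% of all genes) and 3 pathway, 2 induced and 0 lowered genes naive (7.43%). In KI against WT it was 1 pathway gene and no induced or lowered gene at D7 (4.39% of all genes) and likewise naive (2.20%). DESeq2 called 1 pathway gene in KO against WT at D7. Id3, a relative of Id2 in the induced list that was chosen after its values were seen, had 0.52 ± 0.19 in KO against WT at D7 (adjusted p = 0.311) and 0.57 ± 0.20 naive (adjusted p = 0.452). Id2, for instance, had -0.13 in KO against WT at D7 and -0.38 in KO against WT naive, with adjusted p of 0.822 and 0.537.

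For each member, the protein-coding genes of at least 5 CPM whose log2 CPM followed it most closely over the 25 libraries were listed as a description. The libraries share stage, depth and composition, and 8597 genes were searched. Skil was followed by Arsb, a lysosomal sulfatase (Pearson r = 0.943), and Fubp1, a single-stranded DNA-binding regulator (r = 0.924). Ski was followed by Galnt10 (r = 0.872) and 9930111J21Rik1 (r = 0.868), Tgfbr2 by Ipcef1 (r = 0.868) and St8sia1 (r = 0.823), and Tgfbr1 by Ssbp2 (r = 0.813) and Vps13d (r = 0.809). Smad4 was followed by Gmfb (r = 0.882), Smad2 by Zyg11b (r = 0.858), Smad7 by Tet3 (r = 0.817) and Tgfb1 by Lzts1 (r = 0.808). Smad3 had the lowest value of these, with Trps1 (r = 0.752). No member was among the 2 closest genes of another member.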

How the data were processed

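Total RNA of sorted CD4 T cells was sequenced with a stranded total RNA kit in pairs, per the labels. The authors deposited whole-number counts per Ensembl gene for 25 libraries. Per the submitters' processing notes mm10 and DESeq2 were used; no source used here names the aligner, counter or strand setting, so antisense or overlapping genes are uncertain. GENCODE M21 gave symbols for 45229 of 46078 IDs, and promoters came from RefSeq (GRCm38.p6, 5 of 6 members looked for matched, Skil did not).

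Genes passing filterByExpr (minimum count 10, total 15) were scaled by TMM and fitted with edgeR 4.0.16 over all libraries, with 1 mean per group, 12 comparisons and two-sided quasi-likelihood tests, adjusted by Benjamini-Hochberg over 14703 genes at a threshold of 0.05. Alternatives were RLE scaling, DESeq2 1.42.0, limma 3.58.1 voom, other filters, other samples, library-number terms and leaving out each library. The code was tested on simulated data. Levels are TMM-scaled CPM. Intervals cover the spread between libraries. No pair of libraries of a group agreed within counting noise. The 9 members and the other lists were chosen with earlier results of these data known. All 9 members were named; from each other list, up to 4 called genes of smallest p, or 2 of highest level where none was called. Some listed genes are not reported here.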

Additional observations from a re-analysis of the deposited data

Results flagged for a closer look

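Among 54 tests of the members' levels within groups, 3 libraries stood far from the others of their group, against a chance rate of about 1 in 20 groups. Smad2 in KI D7 replicate 1 was at 34.9 CPM, below the other KI D7 libraries at 40.6 to 41.2 CPM. Smad3 in KO D7 replicate 1 was at 74.8 CPM, above the other KO D7 libraries at 69.4 to 70.0 CPM. Smad7 in KO naive replicate 3 was at 208.8 CPM, above the other KO naive libraries at 179.9 to 184 CPM. None of these 3 genes was called in a comparison of single groups, with or without that library.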

How the results depend on the processing

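Small groups limit the genotype comparisons, and the 9 members had at least 256 counts in every library. The numbers of members called, with all 9 counted, were 1 in KO, 4 in KI, 1 in WT and 5 over the mean of genotypes for D7 against naive, and 0 in every other comparison, where the count stayed 0 under every alternative run. With DESeq2 2 were called in KO and 2 in WT; with limma voom 0 in KO and 2 in WT; with the library number as a covariate 2 in WT; and with no filter on low counts 2 in KI. Leaving out 1 library gave 0 to 1 in KO and 1 to 4 in KI. Over all genes, the number called for D7 against naive was 70 in KO (23 to 540 under the alternatives, 33 to 98 without 1 library), 312 in KI (280 to 890, 124 to 369), 331 in WT (284 to 894, 149 to 471) and 1525 over the mean (1351 to 1987, 1197 to 1689). It was 17 in KO against WT at D7 (1 to 349 under the alternatives), 3 naive (2 to 147), 0 in KI against WT at D7 (0 to 96), 1 naive (0 to 59), 70 in KO against KI at D7 (17 to 404) and 41 naive (42 to 269), and the median of all genes stayed within 0.1 of 0 with the low-count filters used. No paired analysis was done because the labels give the libraries no replicate numbers and do not state which belong together. Blocking by sets of 4 library numbers, most of which lacked a genotype, left 3 members called in KI. With 1 library left out, the Smad7 call over the mean was kept without KO D7 replicate 1 or 4, KO naive replicate 4, KI D7 replicate 2, KI naive replicate 1 or 2, WT D7 replicate 2 or 5, or WT naive replicate 4. The cause of these differences was not tested.

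Of 171 log2 fold changes of named genes, 51 changed sign under at least 1 alternative. None of these was called with either sign, and all lay between -0.06 and 0.10 as reported. With limma voom, Gata3 became -0.075 in D7 against naive in KO, Tgfb1 became 0.016 in D7 against naive in WT, Ski became -0.024, Crebbp became 0.011 and Myc became -0.078 in KO against WT at D7, Smad3 became -0.034 in KI against WT at D7, Tgfbr1 became -0.035 in the KO stage effect less that of WT and Smad3 became -0.020 in the KI stage effect less that of WT. With RLE, Smad3 became 0.0021 in D7 against naive over the mean of genotypes. With DESeq2, Smad3 became 0.00076 in D7 against naive over the mean of genotypes. With no filter, Smad2 became -0.0058 in D7 against naive in KO, Myc became -0.0012 in KO against WT at D7, Smad2 became -0.00040 in KO against KI at D7 and Smad4 became -0.0021 in the KI stage effect less that of WT. With the stricter filter, Tgfb1 became 0.0033 in D7 against naive in WT, Smad3 became 0.0078 in D7 against naive over the mean of genotypes, Myc became -0.00048 in KO against WT at D7 and Smad2 became -0.0034 in KO against KI at D7. With mitochondrial, ribosomal RNA and haemoglobin genes left out, Tgfb1 became 0.0023 in D7 against naive in WT and Smad3 became 0.0033 in D7 against naive over the mean of genotypes. With the library covariate, Smad2 became -0.0049 in D7 against naive in KO, Ski became -0.00083 and Myc became -0.0027 in KO against WT at D7 and Smad7 became -0.0089, Ski became -0.0041 and Id2 became -0.0050 in KI against WT naive. With the block, Smad3 became 0.0024 in D7 against naive over the mean of genotypes, Smad3 became -0.015 and Ncor1 became -0.0071 in KI against WT at D7, Smad7 became -0.021, Ski became -0.0097 and Id2 became -0.020 in KI against WT naive, Tgfbr2 became 0.011 and Smad2 became -0.0067 in KO against KI at D7 and Ncor1 became 0.018 and Myc became 0.037 in KO against KI naive.

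With 1 library left out at a time, the log2 fold change of a gene that changed sign ran as follows. In D7 against naive in KO, it ran from -0.083 to 0.00030 for Tgfb1, -0.074 to 0.072 for Smad2, -0.077 to 0.019 for Smad4 and -0.10 to 0.074 for Gata3. In D7 against naive in KI, it ran from -0.018 to 0.064 for Smad3 and -0.074 to 0.024 for Foxp3. In D7 against naive in WT, it ran from -0.055 to 0.033 for Tgfb1, -0.043 to 0.069 for Smad3, -0.053 to 0.0011 for Ncor1 and -0.074 to 0.040 for Gata3. In D7 against naive over the mean of genotypes, it ran from -0.022 to 0.020 for Smad3. In KO against WT at D7, it ran from -0.072 to 0.0075 for Smad2, -0.021 to 0.049 for Ski, -0.038 to 0.079 for Skil, -0.035 to 0.016 for Crebbp and -0.044 to 0.067 for Myc. In KO against WT naive, it ran from -0.045 to 0.051 for Smad4, -0.018 to 0.038 for Crebbp and -0.043 to 0.082 for Myc. In KI against WT at D7, it ran from -0.073 to 0.012 for Smad2, -0.051 to 0.047 for Smad3, -0.13 to 0.024 for Smad7, -0.082 to 0.014 for Ski, -0.10 to 0.0050 for Skil and -0.018 to 0.030 for Ncor1. In KI against WT naive, it ran from -0.023 to 0.065 for Tgfb1, -0.12 to 0.021 for Smad2, -0.068 to 0.035 for Smad3, -0.0016 to 0.071 for Smad7, -0.031 to 0.0056 for Skil, -0.0057 to 0.16 for Foxp3, -0.012 to 0.14 for Id2 and -0.0044 to 0.11 for Myc. In KO against KI at D7, it ran from -0.031 to 0.022 for Tgfbr2, -0.054 to 0.050 for Smad2, -0.10 to 0.057 for Smad7, -0.0055 to 0.091 for Ski, -0.00029 to 0.051 for Crebbp, -0.081 to 0.023 for Foxp3, -0.061 to 0.092 for Id2 and -0.020 to 0.16 for Gata3. In KO against KI naive, it ran from -0.019 to 0.071 for Smad7, -0.046 to 0.017 for Ncor1 and -0.086 to 0.026 for Myc. In the KO stage effect less that of WT, it ran from -0.079 to 0.0089 for Tgfb1 and -0.058 to 0.069 for Tgfbr1. In the KI stage effect less that of WT, it ran from -0.063 to 0.081 for Smad2, -0.033 to 0.072 for Smad3, -0.042 to 0.040 for Smad4 and -0.088 to 0.020 for Skil.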
